A study of Mus musculus with 5 samples.

Results

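Collagen-negative stellate nuclei were liver nuclei that carried at least 2 of 8 stellate markers and no transcript of the fibrillar collagen genes Col1a1, Col1a2 and Col3a1. They numbered 898 of the 48533 nuclei retained (57080 deposited). Each had at least 300 genes, under 10% mitochondrial UMIs, 0 UMIs of Hnf4a, Ptprc, Ptprb and Pkhd1, which mark hepatocytes, leukocytes, endothelium and cholangiocytes, and at least 1 UMI in at least 2 of Reln, Lrat, Dcn, Ecm1, Colec11, Pdgfrb, Hand2os1 and Robo2. A UMI is 1 counted RNA molecule. These values of the 8 markers, 4 excluded genes and 3 collagens chose the nuclei, so the levels of those genes are a description and were not tested, except where a marker was measured in nuclei chosen without it.

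The livers came from male wild-type C57BL6/J mice that started their diet at 10 to 12 weeks of age and stayed on it for 5 months. The Chow group (3 libraries) had regular chow. The MASH group (2 libraries) had a diet of 20 kcal% fructose and 40 kcal% fat with cholesterol at 2%, which brings on metabolic dysfunction-associated steatohepatitis. Nuclei of snap-frozen liver were sorted and sequenced with droplet-based 3′ libraries. Whether a library held 1 mouse or several is not stated, so p-values measure the spread between libraries, which may be technical.

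Hepatic stellate cells lie between hepatocytes and the sinusoidal endothelium and store vitamin A as retinyl esters, which LRAT makes. In a healthy liver they are quiescent and secrete hepatocyte growth factor, R-spondin 3 and CXCL12. On injury they become collagen-producing myofibroblasts, and they can also release the chemokines CCL2 and CCL7, which draw monocytes into tissue.

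Chow 1, 2 and 3 gave 200, 102 and 209 collagen-negative nuclei, and MASH 1 and 2 gave 154 and 233. Their median depth was 999.5, 1359, 1140, 1393.5 and 1177 UMIs in this order, and every one held at least 500 UMIs. Mitochondrial UMIs made up a median of 3.21%, 5.99%, 2.96%, 5.45% and 1.09% per nucleus in the same order. No barcode was shared by collagen-negative nuclei of different libraries. No doublet caller was run, and the gate on 4 genes of other lineages stood in its place.

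Collagen-negative nuclei made up 2.47%, 0.902% and 1.95% of retained nuclei in the Chow libraries, against 2.02% and 2.16% in those of MASH. The means were 1.77% ± 0.797 (SD, n = 3) and 2.09% ± 0.101 (SD, n = 2), and the ranges overlapped (exact permutation test, two-sided, p = 0.8, where the smallest p this design allows is 0.1). Within all stellate nuclei by the same rule they took 47.6%, 67.1% and 56.3% in the Chow libraries, against 26.2% and 18.9% in those of MASH. The collagen-positive remainder numbered 220, 50, 162, 434 and 1001 nuclei. At an equal depth of 500 UMIs a nucleus, the expected collagen-negative share came to 67.4%, 83.7% and 76.3% in the Chow libraries, against 53.2% and 41.7% in those of MASH. Collagen set these shares, so they were not tested. The share of nuclei with 0 collagen UMIs also depends on how many UMIs a nucleus has.

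The label was checked against 22 stellate identity genes that the rule did not use, among them Rgs5, Hand2, Lhx2, Hgf, Ntm and Bmp5. In nuclei with 3 or more of the 8 markers, their summed level was 8095, 5263 and 6177 CPM in Chow and 4769 and 5754 CPM in MASH, where CPM is the UMI count scaled to a common library total. In those with exactly 2 markers it was 907, 824 and 1522 CPM in Chow and 885 and 1000.1 CPM in MASH. Nuclei just outside the rule, with 1 marker and no collagen, had from 221 to 464 CPM. Nuclei just outside on the collagen side, with exactly 1 collagen UMI, had from 4089 to 8529 CPM.

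The stellate label therefore held for the nuclei with 3 or more markers, while those with exactly 2 stood nearer to nuclei outside the rule. The exactly-2 nuclei numbered 45, 41, 55, 69 and 94, which is 22.5%, 40.2% and 26.3% of the collagen-negative nuclei of the Chow libraries, and 44.8% and 40.3% of those in the MASH libraries. They were deeper in 4 of the 5 libraries, with a median of 1093 to 2629 UMIs against 944 to 1266 UMIs in nuclei with 3 or more markers. Results below are for all collagen-negative nuclei, and many are also given for the 155, 61, 154, 85 and 139 nuclei with 3 or more markers.

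**Figure D1:**
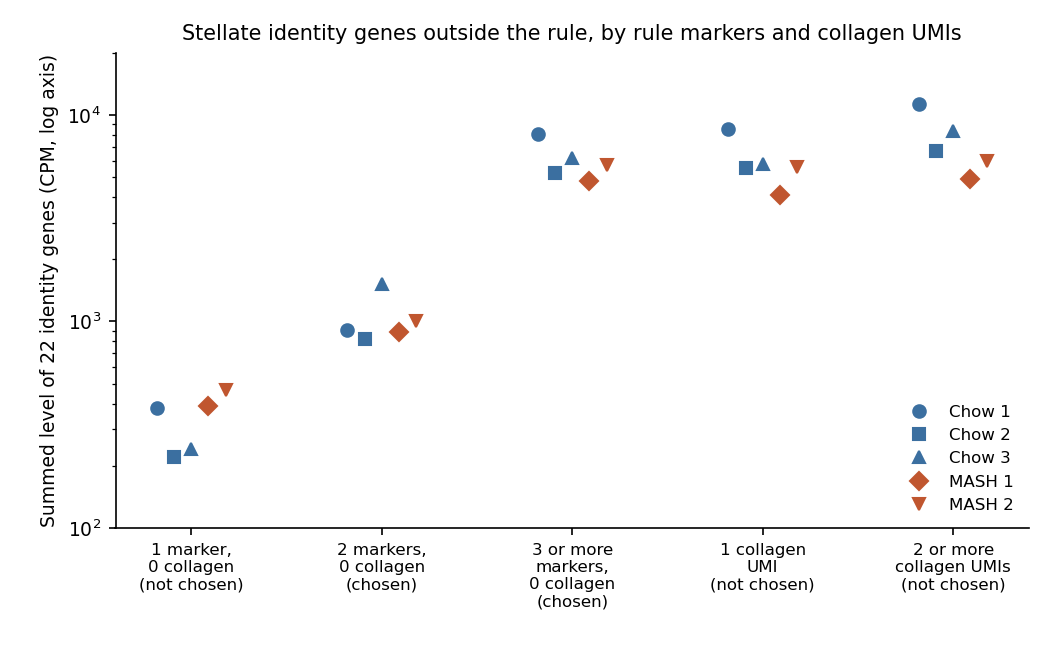
Summed level of 22 stellate identity genes outside the rule (CPM, log axis), 1 point a library, in nuclei grouped by the number of rule markers and of collagen UMIs. Nuclei with 2 markers lie between 824 and 1522 CPM in all 5 libraries, and those with 3 or more between 4769 and 8095 CPM.

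Transcripts of other cell types were also read in these nuclei. The summed level of 8 hepatocyte markers (Alb, Apoa1, Ttr, Cps1, Fgb, Serpina1c, Apob, Cyp2e1) was 13199, 29245 and 25059 CPM in Chow and 10044 and 7737 CPM in MASH. In Hnf4a-positive nuclei of the same libraries it was 14540, 19714 and 18424 CPM and 8678 and 8051 CPM, so these nuclei carried hepatocyte transcripts at about the level of hepatocytes. All 8 were detected in every library. Macrophage markers summed to 23.4, 191 and 121 CPM in Chow and 350 and 266 CPM in MASH, with Timd4 at 0 in all libraries but Chow 2 and Trem2 at 0 in the Chow libraries, and cholangiocyte markers, which include Spp1, summed to 105, 107 and 134 CPM against 413 and 728 CPM, with Epcam, Krt7, Cftr and Cldn7 at 0 in all libraries but MASH 2. Mesothelial markers were highest in Chow 1 and Chow 3 (123 and 177 CPM, against 5.61 to 64.7 CPM elsewhere). Endothelial (82.0 to 196 CPM), smooth muscle (38.9 to 121 CPM), portal fibroblast (5.61 to 62.4 CPM), lymphocyte (14.6 to 190 CPM), proliferation (22.9 to 164 CPM) and erythroid markers (67.0 to 1043 CPM, highest in Chow 2) were also present. Between diets none of the 3 erythroid genes tested passed in edgeR (all had an unadjusted p under 0.05, median log2 fold change -2.59), while DESeq2 called Hba-a1 and Hbb-bs lower in MASH. The part of these transcripts in the results below was not tested, except where values of Hnf4a-positive nuclei are given.

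The 4 leading markers behaved as follows in the nuclei chosen with them. Reln, the secreted glycoprotein reelin, was at 897, 432 and 615 CPM in Chow and 451 and 499 CPM in MASH, against 7.02 to 32.5 CPM in Hnf4a-positive nuclei. Lrat, which esterifies retinol, was at 448, 241 and 288 CPM in Chow and 191 and 192 CPM in MASH. Colec11, a collectin of the lectin complement pathway, was at 311, 252 and 409 CPM in Chow and 173 and 132 CPM in MASH. Both MASH libraries were below all Chow libraries for Lrat and Colec11, but not for Reln.

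To allow a test, each marker was measured in collagen-negative nuclei chosen by at least 2 of the other 7 markers. Ecm1, extracellular matrix protein 1 (chr3:95734147-95739569, GRCm38), which holds latent TGF-beta inactive, was then at 830, 948 and 1191 CPM in Chow and 217 and 190 CPM in MASH. The groups did not overlap, and the log2 fold change was -2.28 (SE 0.44, adjusted p = 0.0330, edgeR quasi-likelihood test with Benjamini-Hochberg adjustment). In that comparison 0.604% of the 5792 genes tested were called lower and 0.363% higher. Measuring the markers this way was chosen after seeing the data. In nuclei with at least 3 of the other 7 markers the log2 fold change was -1.80 with an adjusted p of 0.112 (edgeR), and without Chow 2, MASH 1 or MASH 2 the adjusted p was 0.0922, 0.459 and 0.637, with log2 fold changes from -2.39 to -2.16. In collagen-positive nuclei Ecm1 was at 2217, 1350 and 1746 CPM in Chow and 313 and 258 CPM in MASH. These collagen-positive values lack the scaling used in the test and come from nuclei chosen with Ecm1 among the markers.

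The other 7 markers did not pass when measured this way. Colec11 had a log2 fold change of -1.28 (SE 0.41, edgeR adjusted p = 0.178) and Lrat of -1.003 (SE 0.38, edgeR adjusted p = 0.250). Dcn, the proteoglycan decorin, was at -1.27 (adjusted p = 0.348), Pdgfrb, the PDGF receptor beta, at -0.73 (adjusted p = 0.532) and Reln at -0.59 (adjusted p = 0.580). Hand2os1 at -0.07 and Robo2 at 0.38 had edgeR adjusted p-values of 0.974 and 0.775.

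Of the 22 identity genes outside the rule, 19 could be tested between diets in all collagen-negative nuclei. Fcna and Angptl6 fell, none rose, and 17 of 19 had a negative log2 fold change. Over all 6555 genes tested 0.778% were called lower in MASH and 0.488% higher. The median log2 fold change of the list was -0.80, beside -0.02 for all genes. In nuclei with 3 or more markers it was -0.42 beside -0.03, and 1 of 20 genes tested, Fcna, fell.

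Fcna encodes ficolin A, a lectin that activates complement. Its level was 68.3, 65.8 and 181 CPM in Chow and 8.92 and 6.33 CPM in MASH, with 85 and 6 UMIs in all. Each MASH library lay below each Chow library, with a log2 fold change of -3.76 (SE 0.65, edgeR adjusted p = 0.0196) and, with 3 or more markers, of -3.41 (adjusted p = 0.0286). Without MASH 1 or MASH 2 its adjusted p was 0.0799 and 0.111. Fcna stood at 2.91 and 1.17 CPM on average in Hnf4a-positive nuclei of Chow and MASH.

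Angptl6, an angiopoietin-like secreted factor, was at 89.3, 59.8 and 128 CPM in Chow and 20.8 and 21.1 CPM in MASH. The groups did not overlap (log2 fold change -2.15, SE 0.46, edgeR adjusted p = 0.0481). With 3 or more markers it was -1.59 with an adjusted p of 0.177, and the adjusted p was over 0.05 without any one of Chow 2, Chow 3, MASH 1 and MASH 2 (0.0644 to 0.372).

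The identity genes with most UMIs that did not pass included Cxcl12, Hgf and Ank3. Hgf, hepatocyte growth factor, was at 746, 424 and 765 CPM in Chow and 366 and 375 CPM in MASH. Its log2 fold change was -0.80 (SE 0.41, edgeR adjusted p = 0.407). Cxcl12, the ligand of CXCR4, was at 783, 580 and 968 CPM and 437 and 601 CPM, with a log2 fold change of -0.58 (adjusted p = 0.559), so its groups overlapped. Ank3, an ankyrin, was at -0.43 (adjusted p = 0.683). Rgs5, a regulator of G protein signalling, was at 81.4, 120 and 151 CPM in Chow and 167 and 73.8 CPM in MASH. Its groups overlapped fully, with a log2 fold change of 0.03 (SE 0.44, edgeR adjusted p = 0.982). Rgs5 in Hnf4a-positive nuclei was at 2.10 and 5.48 CPM on average.

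**Figure D2:**
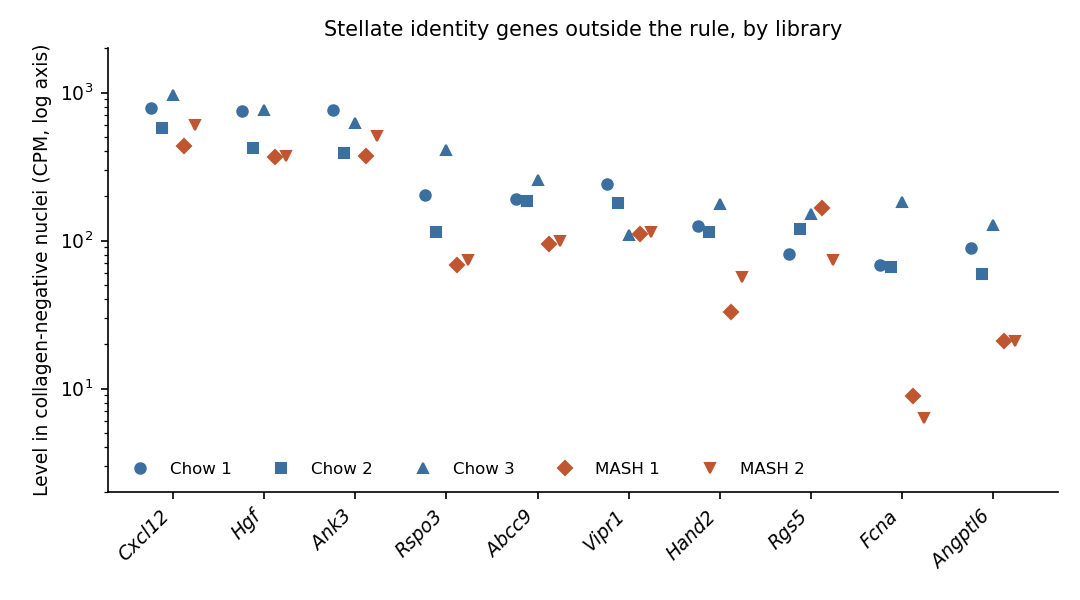
Level (CPM, log axis) of 10 stellate identity genes outside the rule in collagen-negative nuclei, 1 point a library. Fcna and Angptl6 passed the test between diets. Both MASH libraries lie at 6.33 to 8.92 CPM for Fcna and at 20.8 to 21.1 CPM for Angptl6, and the groups overlap for Cxcl12, Ank3, Vipr1 and Rgs5.

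Retinoid and lipid handling genes gave no call between diets. Of 20 genes 13 were tested, 4 had an unadjusted edgeR p under 0.05, and DESeq2 called none. Plin2, which coats lipid droplets, was at 431, 466 and 411 CPM in Chow and 446 and 234 CPM in MASH, with a log2 fold change of -0.36 (edgeR adjusted p = 0.734). Lpl, lipoprotein lipase, was at 36.8, 17.9 and 75.3 CPM in Chow and 86.2 and 190 CPM in MASH (log2 fold change 1.63, SE 0.51, edgeR adjusted p = 0.179), and was named after its values were seen. The median log2 fold change of the list was -0.10.

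Chow 3 stood apart from the other libraries in the chemokine genes, so results on Ccl2 and Ccl7 are given with and without it. Nuclei with a UMI of Ccl2 or Ccl7 were 138 of 209 in Chow 3, or 66.0% (exact 95% binomial interval 59.2 to 72.4%). They were 17 of 200 in Chow 1 (8.5%, 5.03 to 13.3%) and 8 of 102 in Chow 2 (7.84%, 3.45 to 14.9%). In MASH 1 they were 30 of 154 (19.5%, 13.5 to 26.6%) and in MASH 2 20 of 233 (8.58%, 5.32 to 12.9%). Intervals cover counting error only. In nuclei with 3 or more markers the shares were 10.3%, 11.5%, 74.0%, 25.9% and 10.1% from Chow 1 to MASH 2. The intervals over all collagen-negative nuclei of Chow 3 and of every other library did not overlap, while both MASH libraries lay within the range of Chow.

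At 500 UMIs a nucleus, which left out no nucleus, the shares were 5.65%, 3.75% and 51.8% for the Chow libraries, against 10.8% and 5.65% for those of MASH. The means were 20.4% ± 27.2 (SD, n = 3) and 8.21% ± 3.62 (SD, n = 2), a difference of -12.2 percentage points (exact permutation test, two-sided, p = 0.9). Without Chow 3 the difference was 3.50 percentage points, so 1 library set the direction. In Hnf4a-positive nuclei the shares at 500 UMIs were 0.167%, 0.0506%, 1.03%, 1.30% and 1.10% from Chow 1 to MASH 2. Before thinning they were 0.621%, 0.256%, 5.58%, 5.18% and 5.08% at median depths of 3599 to 4704 UMIs. Stellate shares thus lay above those of Hnf4a-positive nuclei in every library.

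Ccl2 gave nearly all of this signal. Its UMIs in collagen-negative nuclei were 35, 20 and 712 in Chow and 74 and 82 in MASH, with 1 nucleus holding 50% of those of Chow 2 and 1 holding 46.3% of those of MASH 2. Ccl7 had 0, 0 and 20 UMIs in Chow and 4 and 13 in MASH. A count of 0 allows a share of nuclei with a Ccl7 UMI of up to 1.5% in Chow 1 and 2.94% in Chow 2, which does not limit the share of nuclei that express it. The genes neighbour each other on chromosome 11 (Ccl2 at chr11:82035571-82037453, Ccl7 at chr11:82045712-82047525, GRCm38, both on the plus strand). The level of Ccl2 was 91.9, 120 and 2682 CPM in Chow and 220 and 173 CPM in MASH, with a log2 fold change of -2.30 (SE 1.18, edgeR adjusted p = 0.409, and from 4.3e-04 to 0.889 over the alternatives). Without Chow 3 it was 0.89 (adjusted p = 0.297). Ccl7 had a log2 fold change of -0.31 (SE 1.14, edgeR adjusted p = 0.938), in which the groups overlapped.

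A high share was also seen in other nuclei of Chow 3. Collagen-positive stellate nuclei of Chow 3 were at 71.6% (64.0 to 78.4%), Ptprc-positive nuclei at 16.6% (11.8 to 22.3%) and Ptprb-positive nuclei at 7.44%. Collagen-positive nuclei of the other libraries were at 9.55%, 16.0%, 17.3% and 9.29% in Chow 1, Chow 2, MASH 1 and MASH 2. The collagen-positive share was higher than the collagen-negative one in Chow 1, Chow 2, Chow 3 and MASH 2, and lower in MASH 1. The intervals of both classes overlapped in every library. Ccl2 did not pass between the classes (log2 fold change of collagen-negative minus collagen-positive -0.28, SE 0.15, edgeR adjusted p = 0.192).

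**Figure D3:**
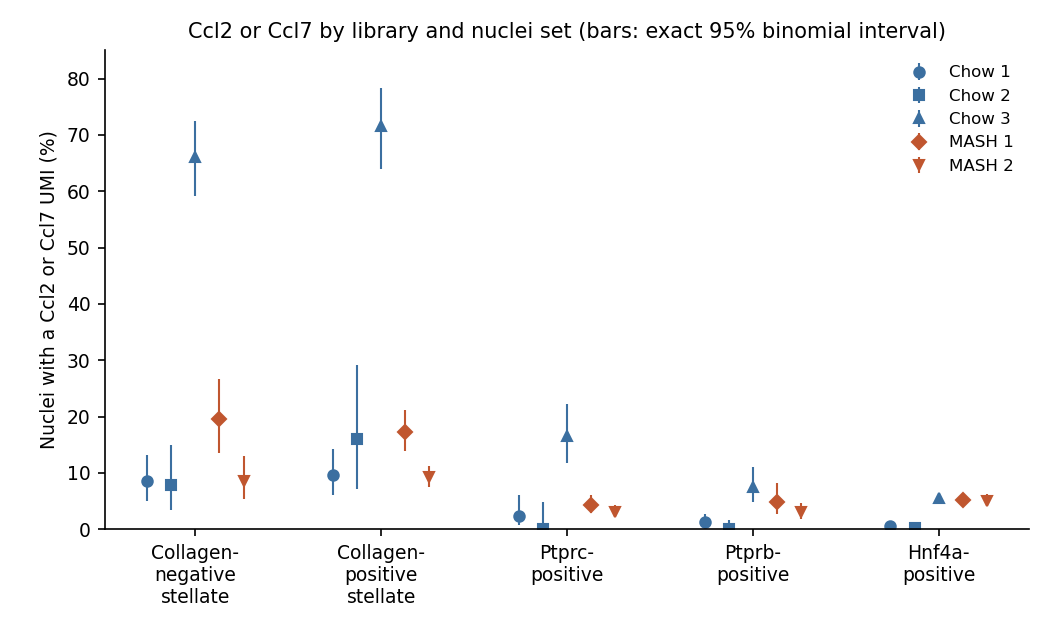
Share of nuclei with at least 1 UMI of Ccl2 or Ccl7 (%), by nuclei set and library, with exact 95% binomial intervals. Chow 3 lies at 66.0% in collagen-negative and 71.6% in collagen-positive stellate nuclei, and the other libraries lie between 7.84% and 19.5% in these sets.

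Other genes were also highest in collagen-negative nuclei of Chow 3. Cxcl10, an interferon-induced chemokine, was at 531 CPM there and at 7.88 to 152 CPM in the other libraries. Vcam1 and Icam1, which bind leukocyte integrins, were at 531 and 456 CPM against 41.8 to 139 and 29.9 to 90.7 CPM. Csf1, the growth factor of macrophages, was at 625 CPM against 89.3 to 143 CPM. Nfkb1, an NF-kB subunit, was at 471 CPM against 108 to 199 CPM, and Cebpd, an acute-phase transcription factor, at 614 CPM against 40.1 to 167 CPM. Cxcl10 was also highest in collagen-positive nuclei of Chow 3 (500 CPM, against 22.9 to 100 CPM in the other libraries). These high levels are the values of 1 library and were not tested.

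Within Chow 3, the 138 nuclei with a UMI of Ccl2 or Ccl7 and the 71 without had like depth (median 1136.5 and 1152 UMIs). The nuclei with one had 713 CPM of Cxcl10 against 59.3 CPM, 697 against 296 CPM of Csf1, 554 against 144 CPM of Icam1 and 554 against 178 CPM of Nfkb1. They also had more Colec11 (596 against 110 CPM), while Lrat was at 287 and 288 CPM. Csf1 and Icam1 were higher in the nuclei with Ccl2 or Ccl7 in all 5 libraries, whereas Colec11 was lower in them in MASH 2 (90.3 against 136 CPM), Nfkb1 in Chow 2 (0 against 111 CPM) and Cxcl10 in Chow 1 (0 against 9.38 CPM) and MASH 1 (43.8 against 170 CPM). Those groups held 8 to 30 nuclei. Cxcl1, which was high in hepatocytes of Chow, went the other way (1017 against 1609 CPM). These nuclei were split by a measured value within a library, so the differences are a description with no test.

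No chemokine, cytokine or NF-kB gene passed between diets in edgeR. Of 18 chemokine and cytokine genes 8 were tested, 2 had an unadjusted p under 0.05 and DESeq2 called none, and all 8 log2 fold changes were negative (median -0.99, with Chow 3 in the fit). Besides Ccl2 and Cxcl12, the highest were Cxcl1 (log2 fold change -2.92, edgeR adjusted p = 0.191), Csf1 (-1.20, adjusted p = 0.490) and Cxcl10 (-0.79, adjusted p = 0.812). Without Chow 3, Cxcl10 was higher in MASH, with a log2 fold change of 3.45 (edgeR adjusted p = 0.0224). Few nuclei carried this MASH signal: in MASH 1, 2.42% of the 124 nuclei without Ccl2 or Ccl7 held 49 of the 51 Cxcl10 UMIs, and in MASH 2, 10% of the 20 nuclei with Ccl2 or Ccl7 held all 31. Of 16 NF-kB and cytokine response genes 14 were tested, 6 had an unadjusted p under 0.05 and DESeq2 called 1, Cebpd. In edgeR Cebpd had a log2 fold change of -2.68 (SE 0.80, edgeR adjusted p = 0.151), with 65.7, 167 and 614 CPM in Chow and 47.6 and 40.1 CPM in MASH. The groups did not overlap for Cebpd, and without Chow 1 it passed in edgeR (adjusted p = 0.0284).

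Across all genes, 83 of 6555 differed between diets in collagen-negative nuclei, 32 higher and 51 lower in MASH. Of the 83, 72 were also called in the same direction in Hnf4a-positive nuclei. In those nuclei 1111 of all 14462 genes tested were called higher and 578 lower. As to level, 55 of the 83 were below that in Hnf4a-positive nuclei of the group where they were higher. The share of all tested genes below it was not counted. In nuclei with 3 or more markers 8 genes were higher and 24 lower, of 4561 tested.

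Genes of the 10 largest falls at a level no lower than in hepatocytes were Fcna and 9 genes of the hepatocyte programme. These were the major urinary protein genes Mup1, Mup7, Mup11, Mup12, Mup16 and Mup17, the serpin gene Serpina1e and the cytochrome P450 genes Cyp2c29 and Cyp2c54, all transcribed in hepatocytes. Mup11 was at 793, 1937 and 3363 CPM in Chow and 17.8 and 4.22 CPM in MASH (log2 fold change -7.57, SE 0.93, edgeR adjusted p = 0.00544), and its fold in Hnf4a-positive nuclei was -6.67. For Mup1 the Chow libraries held 244 UMIs and those of MASH 0, where a floor of 3 counts over the group makes it at least 75.6-fold lower. Mup genes are near-identical copies, so reads can be split between them. Serpina1e, Cyp2c29 and Cyp2c54 had log2 fold changes of -6.64, -4.63 and -5.81, and of -7.13, -3.81 and -4.33 in Hnf4a-positive nuclei.

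Of the 32 genes called higher, 5 were at a level no lower than in hepatocytes: Spp1, Gpnmb, H2-Eb1, Cd84 and Ccnd1. Spp1, the secreted matrix protein osteopontin, was at 5.25, 17.9 and 18.8 CPM in Chow and 294 and 464 CPM in MASH. Its groups were far apart, with a log2 fold change of 4.85 (SE 0.51, edgeR adjusted p = 0.00317), and it passed in all 16 alternatives, with 4.55 in nuclei with 3 or more markers. In Hnf4a-positive nuclei Spp1 had a log2 fold change of 4.16, from 6.81 to 164 CPM on average.

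The other 4 rested on fewer UMIs. Gpnmb, a lysosomal glycoprotein, had 1 UMI in Chow and 31 in MASH (log2 fold change 4.57, SE 0.92, edgeR adjusted p = 0.0396). H2-Eb1, a class II histocompatibility chain, had 2 and 47 UMIs (4.34, SE 0.74, edgeR adjusted p = 0.0184), and Cd84, a leukocyte surface receptor, had 2 and 33 UMIs (3.84, SE 0.80, edgeR adjusted p = 0.0433). These 3 genes are known from macrophages, whose marker Cd74 was at 5.25, 35.9 and 37.7 CPM in Chow and 137 and 97.0 CPM in MASH (adjusted p = 0.0855, edgeR). Ccnd1, the cell-cycle gene cyclin D1, had 5 and 48 UMIs (3.16, SE 0.65, edgeR adjusted p = 0.0413). Leaving out MASH 1 or MASH 2 took H2-Eb1, Cd84 and Ccnd1 to adjusted p-values of 0.271 to 0.712, and Gpnmb without MASH 1 to 0.402. Calls were also lost without Chow 1 (Cd84 and Ccnd1, 0.0507 and 0.0686), Chow 2 (Gpnmb, H2-Eb1 and Cd84, 0.0549 to 0.0952) and Chow 3 (Ccnd1, 0.0648).

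Of the 14 arrest and senescence genes 9 were tested and Gdf15 rose. Gdf15, a stress-induced secreted factor, was at 26.3, 29.9 and 30.1 CPM in Chow and 113 and 120 CPM in MASH (log2 fold change 2.02, SE 0.37, edgeR adjusted p = 0.0255). The groups did not overlap, and with 3 or more markers the log2 fold change was 2.92 (adjusted p = 0.0369). Hnf4a-positive nuclei had more of it, at 50.2 and 233 CPM. Without Chow 2, MASH 1 or MASH 2 its adjusted p was 0.0829, 0.169 and 0.162. Themis, a signalling protein of T cells that was on the lymphocyte list, was at 7.88, 0 and 0 CPM in Chow and 80.3 and 50.6 CPM in MASH (log2 fold change 4.03, SE 0.75, edgeR adjusted p = 0.0306), and at 2.63 and 118 CPM in Hnf4a-positive nuclei. Serpina1c, on the hepatocyte list, had a log2 fold change of -2.87 (SE 0.59, edgeR adjusted p = 0.0428). Without Chow 2, MASH 1 or MASH 2 the adjusted p was 0.0846, 0.382 and 0.0844 for Themis and 0.109, 0.292 and 0.526 for Serpina1c. In nuclei with 3 or more markers neither passed, with log2 fold changes of 4.55 (edgeR adjusted p = 0.0863) for Themis and -2.79 (adjusted p = 0.0666) for Serpina1c.

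At 5 times the level of Hnf4a-positive nuclei or more there were 3 of the 83 called genes, Fcna, Angptl6 and Itgb3. This selection was made after the values were seen. The share of all tested genes at such a level was not counted, so the count is a description. Itgb3, the integrin beta 3 chain, was at 71.8 CPM ± 31.0 (SD, n = 3) in Chow and 8.25 CPM ± 3.25 (SD, n = 2) in MASH. It had a log2 fold change of -2.94 (SE 0.62, edgeR adjusted p = 0.0458), and with 3 or more markers of -2.59 (adjusted p = 0.0889). Without Chow 2, Chow 3, MASH 1 or MASH 2 the adjusted p was 0.125, 0.0666, 0.292 and 0.148. Itgb3 in Hnf4a-positive nuclei was at 0.656 and 1.20 CPM.

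**Figure D4:**
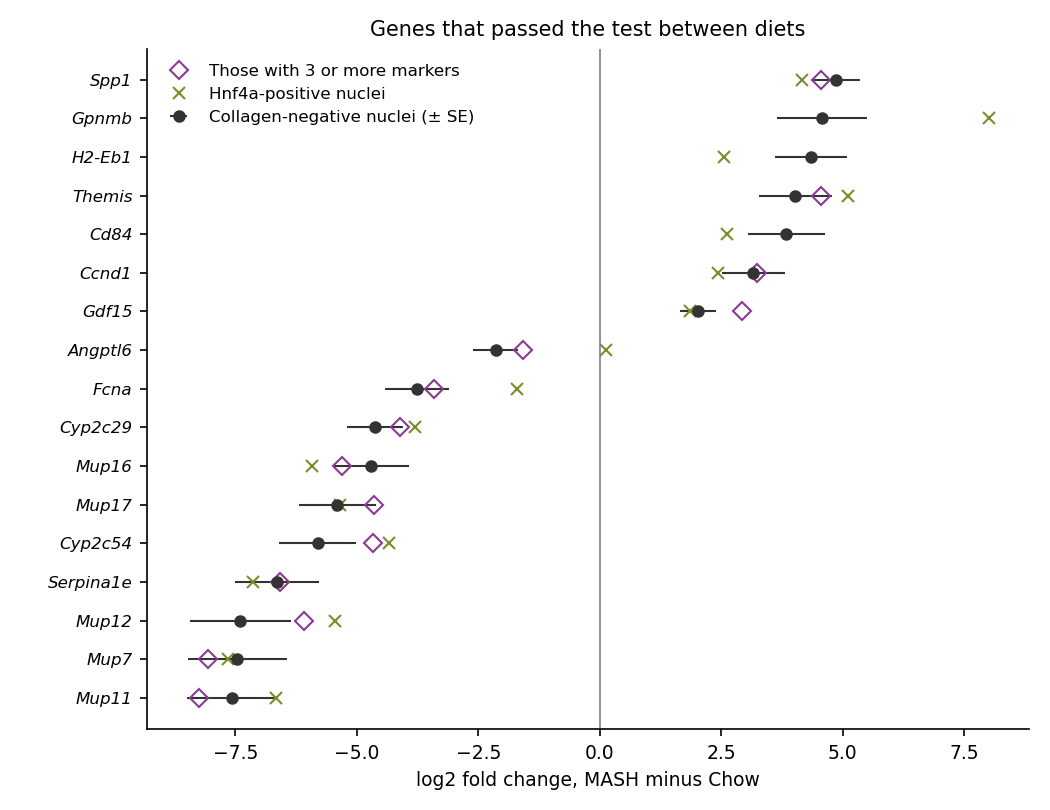
Log2 fold change of MASH minus Chow for named genes that passed in collagen-negative nuclei (points with SE, 3 Chow and 2 MASH libraries), beside the same in nuclei with 3 or more markers and in Hnf4a-positive nuclei. Spp1 is at 4.85, 4.55 and 4.16 in these sets, while Angptl6 is at -2.15, -1.59 and 0.13.

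Matrix genes outside the rule gave no call between diets in collagen-negative nuclei. The rule had left out nuclei with a collagen UMI, a larger part of stellate nuclei in MASH than in Chow. Stellate nuclei as a whole were not tested. Of 35 genes 21 were tested, 3 had an unadjusted edgeR p under 0.05, and DESeq2 called none. The median log2 fold change was -0.22, and 0.10 with 3 or more markers. Fn1, fibronectin, was at 793, 807 and 919 CPM in Chow and 850 and 858 CPM in MASH (log2 fold change 0.03, SE 0.38, edgeR adjusted p = 0.984), with groups that overlapped. Bgn, the proteoglycan biglycan, was at -0.96 (adjusted p = 0.332), Col14a1, a fibril-associated collagen, at -0.32 (adjusted p = 0.791) and Sparc, a collagen-binding matricellular protein, at -0.84 (adjusted p = 0.376).

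TGF-beta and PDGF signalling genes (12 of 22 tested, 2 with an unadjusted p under 0.05) and immediate-early genes (11 of 21 tested, 3 with an unadjusted p under 0.05) gave no call in edgeR or DESeq2. Their median log2 fold changes were -0.49 and -0.68. Pdgfra, the PDGF receptor alpha, was at 467 CPM in Chow 3 and 65.4 to 113 CPM in the other libraries.

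The last comparison asked how collagen-negative nuclei differed from collagen-positive stellate nuclei of the same libraries. Of 5680 genes, 705 were higher (12.4%) and 607 lower (10.7%) in collagen-negative nuclei, with the library as a block. Of the higher genes 675 were below their level in Hnf4a-positive nuclei. The share of all tested genes below that level was not counted, so the count is a description. In nuclei with 3 or more markers 110 were higher and 70 lower of 3886 tested, and in nuclei of 500 to 2000 UMIs, 41 and 22 of 3031. Without the library block none passed in edgeR (742 at an unadjusted p under 0.05).

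Identity genes were lower in collagen-negative nuclei in the first of these fits, with 19 of 20 tested genes called lower and a median log2 fold change of -0.89 beside 0.00 for all genes. With 3 or more markers the median was -0.28 and 2 of 19 genes were lower, Adamtsl2 and Fcna. In nuclei of 500 to 2000 UMIs it was -0.15 and 1 of 18 was lower, Adamtsl2. Hgf was at 757, 426, 762, 355 and 374 CPM in collagen-negative and 1060, 465, 1179, 751 and 976 CPM in collagen-positive nuclei of Chow 1 to 3 and MASH 1 and 2 (log2 fold change -0.80, SE 0.13, edgeR adjusted p = 2.2e-05). With 3 or more markers it was -0.19 (adjusted p = 0.401). Adamtsl2, a fibrillin-binding secreted protein, was at -1.30 (SE 0.16, adjusted p = 2.3e-07) and -0.64 (adjusted p = 0.00106).

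Matrix and myofibroblast genes outside the rule were lower in collagen-negative nuclei under all 3 of these choices of nuclei. Of 22 tested, 21 were lower, with a median log2 fold change of -1.14. With 3 or more markers 9 of 21 were lower (among them Timp3, Col5a2, Col6a1, Col6a3, Col14a1, Sparc, Bgn and Vim, median -0.52), and at 500 to 2000 UMIs 6 of 21 were (Timp3, Col5a2, Col6a1, Col6a3, Bgn and Vim, median -0.42). Col5a2, which joins type I collagen in fibrils, was at 24.0, 18.0, 30.03, 31.8 and 50.4 CPM against 105, 75.4, 68.3, 148 and 163 CPM in collagen-positive nuclei. It was lower in 5 of 5 libraries, with a log2 fold change of -1.85 (SE 0.21, edgeR adjusted p = 1.1e-07) and -1.21 with 3 or more markers (adjusted p = 1.98e-04). Col6a3, a chain of type VI collagen, was lower in 5 of 5 libraries at -1.42 (SE 0.15, adjusted p = 2.0e-08) and -0.76 (adjusted p = 2.7e-05).

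Bgn was lower in 5 of 5 libraries at -1.25 (SE 0.13, edgeR adjusted p = 2.0e-08) and -0.63 with 3 or more markers (adjusted p = 3.1e-05). Vim, the filament protein vimentin, was lower in 4 of 5 libraries at -1.47 (SE 0.21, edgeR adjusted p = 2.3e-06). Fn1, which hepatocytes also express, did not pass (0.30, SE 0.11, adjusted p = 0.0545, edgeR). Igfbp7, an IGF-binding protein on the arrest list, was at 221, 210, 800, 205 and 111 CPM against 656, 641, 1371, 455 and 304 CPM (log2 fold change -1.26, SE 0.14, edgeR adjusted p = 4.1e-08), and at -0.74 with 3 or more markers (adjusted p = 8.9e-06).

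The 10 largest falls at a level no lower than in hepatocytes, and in every library, were Emp1, Itga8, Col5a2, Fbln5, Ckap4, Eln, Art4, Spry1, Spsb1 and Gsn. Eln and Fbln5 build elastic fibres, Itga8 is an integrin of stellate and mesangial cells and Gsn severs actin. Their log2 fold changes ran from -2.24 (Emp1, SE 0.28, edgeR adjusted p = 2.8e-07) to -1.60 (Gsn). The 10 largest rises by the same rule were Coq8a, Slc22a18, Cth, Paics, Mbl1, Decr1, Tm7sf3, Otc, Hsd17b4 and Inmt, from 1.17 (Coq8a) to 0.66. Several are enzymes of hepatocytes, such as Otc of the urea cycle and Cth of cysteine synthesis, and with 3 or more markers none of the 7 that could be tested passed (edgeR adjusted p from 0.0630 for Coq8a to 0.993 for Inmt).

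**Figure D5:**
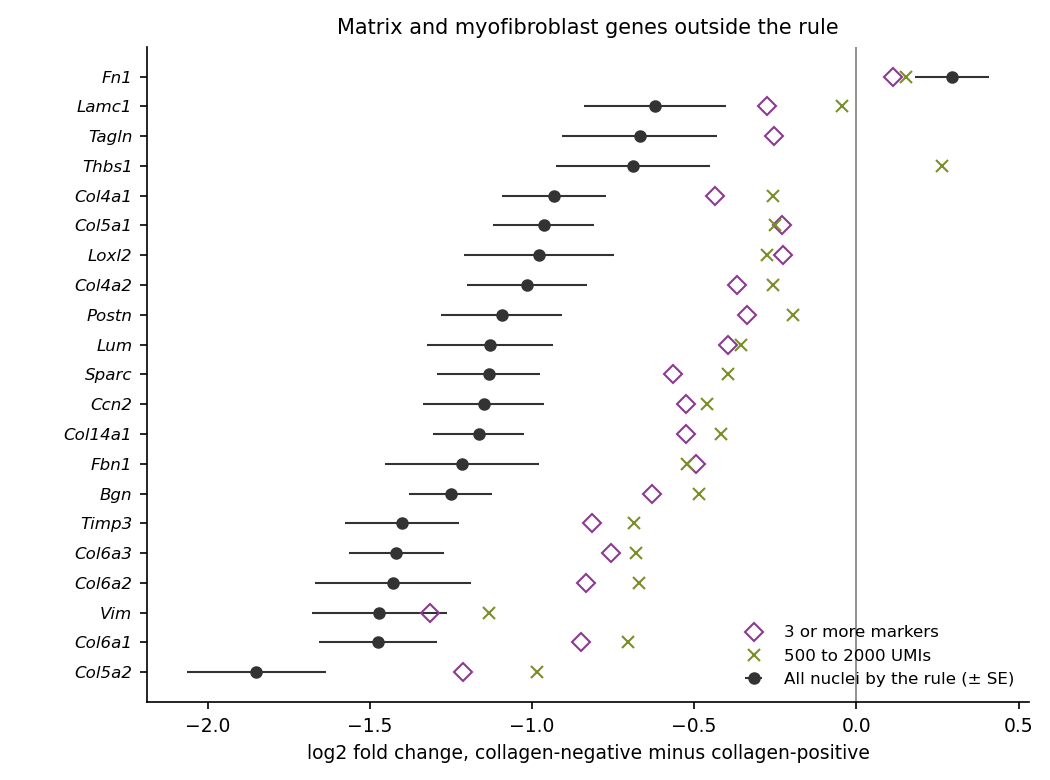
Log2 fold change of collagen-negative minus collagen-positive stellate nuclei for 21 matrix and myofibroblast genes outside the rule (points with SE over 5 libraries), beside the same for nuclei with 3 or more markers and for nuclei of 500 to 2000 UMIs. Col5a2 lies at -1.85, -1.21 and -0.98, and Fn1 is the only gene plotted above 0 in all 3.

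The other lists gave these counts in the same comparison, in which 12.4% of all genes were higher and 10.7% lower. Of 11 retinoid and lipid genes 1 was higher (Plin2) and 2 were lower (Lpl among them), and of 11 TGF-beta and PDGF genes 7 were lower. Of 10 immediate-early genes Junb, Zfp36 and Btg2 were higher, of 6 chemokine and cytokine genes Cxcl1 was higher and Cxcl12 and Csf1 lower, and of 14 NF-kB genes 3 were lower and Cebpb higher. With 3 or more markers only Cxcl1 of these passed (log2 fold change 0.64, edgeR adjusted p = 0.00457). Cxcl1 in Hnf4a-positive nuclei was at 778 CPM on average.

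Whether the diet difference itself differed between the classes was tested in 1 fit. One of 5680 genes passed (0.0176%), Gm15879, described in the closing section. Among genes described above, Rgs5 had a difference of 1.34 (SE 0.35, edgeR adjusted p = 0.275), Hgf of -0.77 (SE 0.23, adjusted p = 0.364) and Ccl2 of 0.64 (SE 0.27, adjusted p = 0.775).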

How the data were processed

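Raw UMI counts per gene and nucleus were used as deposited. The authors made these counts with Cell Ranger 8.0.1 from its mouse mm10 reference (GRCm38), leaving out intronic reads, and no cell names, doublet calls or normalised values were used here. The files list 32285 genes. Libraries were grouped by their titles. The nuclei and gene lists were chosen with earlier results of these data known.

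Counts were summed per library over the nuclei of a class. Sums were compared with edgeR 4.0.16 in R 4.3.3 (TMM, filterByExpr, quasi-likelihood test, Benjamini-Hochberg adjustment, two-sided, called at an adjusted p under 0.05), leaving out rule genes and mitochondrial genes. The class comparison had the library as a block. Levels are CPM, TMM-scaled for the nuclei compared. Levels in Hnf4a-positive nuclei, summed list levels and rule markers in nuclei chosen with them are CPM without this scaling. The same holds for nuclei split by Ccl2 or Ccl7. A level called no lower than in Hnf4a-positive nuclei, or in hepatocytes, therefore sets scaled against unscaled CPM. The SE of a log2 fold change is its size over the square root of F. Library shares were compared with an exact permutation test over all 10 assignments. Thinning gives the expected share at 500 UMIs. Collagen-negative nuclei held 178321 to 432989 UMIs a library, so a gene at 20 CPM rests on under 10 UMIs.

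Named genes passed, had at least 20 UMIs, were separated by group (between classes, had the same sign in every library) and were no lower than in Hnf4a-positive nuclei, taking the 10 largest changes each way. To these were added every list gene that passed and the highest that did not. Hnf4a-positive, Ptprb-positive and Ptprc-positive nuclei have a UMI of that gene and none of the other 3 excluded genes. Alternatives were DESeq2 1.42.0, other size factors and filters, Storey q-values, stricter gates, a depth band and leaving out libraries. The fits were also run on simulated data at a fixed dispersion, with large changes placed in genes of many UMIs. That run does not show how well they find smaller changes or changes in genes of few UMIs. Coordinates are from GENCODE M21. Some genes of the lists are counted but not reported by name here.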

Additional observations from a re-analysis of the deposited data

Results flagged for a closer look

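The diet difference of Gm15879 was 3.28 higher on the log2 scale in collagen-negative than in collagen-positive nuclei (SE 0.62, edgeR adjusted p = 0.0252), a difference between the classes that was itself tested. Its level in collagen-negative nuclei was 42.6, 12.0 and 7.51 CPM in Chow and 156 and 105 CPM in MASH. In collagen-positive nuclei it was 12.3, 37.7 and 141 CPM in Chow and 38.5 and 24.1 CPM in MASH. The adjusted p ranged from 3.7e-14 to 0.999 over the alternatives, so the call depends on the setting.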

How the results depend on the processing

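The count of genes called between diets in collagen-negative nuclei (83) became 130 with DESeq2 (36 higher, 94 lower), 366 without the low-count filter, 32 with 3 or more markers, 42 without nuclei over 3 times the median UMIs and 29 at 500 to 2000 UMIs. Leaving out 1 library gave 19 to 157 calls (157 without Chow 1, 25 without Chow 2, 19 without MASH 1, 31 without MASH 2). With 3 or more markers, leaving out 1 library, added after seeing the data, gave 7 to 47 (20 without Chow 1, 7 without Chow 2, 47 without Chow 3, 13 without MASH 1, 8 without MASH 2). With the replicate block there were 130 calls, but the numbers are shared by only 2 pairs of libraries, whose deviations had correlations of -0.22 and -0.17, so the numbers were not taken as a pairing. Of the 83 genes, 79 were called the same way by DESeq2 and 30 with 3 or more markers, and none in the opposite direction.

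The count between classes (1312) became 715 with DESeq2, 180 with 3 or more markers, 663 without nuclei over 3 times the median UMIs, 63 at 500 to 2000 UMIs and 0 without the library block, and 744 to 1471 without 1 library (744 without MASH 2). The interaction gave 0 calls with DESeq2 (67 at an unadjusted p under 0.05) and at 500 to 2000 UMIs, 4 with 3 or more markers (added), and 0 to 12 without 1 library (12 without Chow 1, 0 without Chow 2, 2 without MASH 2). The cause of these moves was not tested.

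The difference in Ccl2 or Ccl7 share (-12.2 percentage points) was reversed only without Chow 3 (3.50) and ran from -20.5 to 3.50 over the libraries left out. The difference in member share of retained nuclei (0.315 percentage points) was reversed with 3 or more markers (-0.0957) and without Chow 2 (-0.121), with a range of -0.121 to 0.660 over the libraries left out. Among single genes, Ccl2 was reversed without Chow 3 (0.89) and with the replicate block (0.91), ranging from -2.86 to 0.89 over the libraries left out, and Ccl7 without nuclei over 3 times the median UMIs (0.0459), at 500 to 2000 UMIs (0.29), without MASH 1 (range -1.05 to 0.0906) and with the block (5.47). Inmt between classes was reversed with 3 or more markers (-0.0116), Hand2os1 without Chow 1 (0.20) or MASH 1 (range -0.86 to 0.41) and with at least 3 of the other 7 markers (0.20), and Robo2 without MASH 2 (range -0.48 to 0.89).

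Few UMIs limit the low genes. A separate limit holds for the shares: at 3 against 2 libraries no exact permutation test of a share can go below a p of 0.1.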
